A study of Mus musculus with 14 samples.

Results

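The clustered protocadherins are 58 of the 56941 genes in the deposited tables. They were taken by symbol from the authors' gene annotation, as every Pcdh gene with an a, ac, b, ga, gb or gc number, and fall into 3 neighbouring clusters on mouse chromosome 18. The alpha cluster holds 14 members (12 A-type genes, Pcdha1 to Pcdha12, and the C-type genes Pcdhac1 and Pcdhac2). The beta cluster holds 22 members. The gamma cluster holds 22 members (12 gamma A, 7 gamma B and the C-type genes Pcdhgc3, Pcdhgc4 and Pcdhgc5).

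RNA-seq was made from embryonic mouse telencephalon at day E12.5 and from cerebral cortex at E18.5, with 3 libraries a genotype at E12.5 and 4 at E18.5. The dcKO embryos carried floxed Sbno1 (strawberry notch homologue 1, a regulator of transcription), floxed Trp53 (the tumour suppressor p53) and Emx1-Cre, a driver active in progenitors of the dorsal telencephalon. The comparison group, ff, is labelled as floxed only, and the labels do not say whether it carried Cre. No group had a deletion of Sbno1 alone, of Trp53 alone or the driver alone, so the parts played by each deletion and by Cre cannot be told apart. Stage and dissected tissue changed together. The samples of a group are separate in the labels, which do not say whether they came from separate litters.

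Clustered protocadherins are cell-surface adhesion proteins of neurons that bind copies of themselves on facing membranes and are known for self-avoidance of dendrites and for neuronal survival. In the alpha and gamma clusters each member has its own promoter and a large variable first exon, which is spliced to constant exons shared by the whole cluster; beta members are mostly single-exon genes. A-type, B-type and beta genes are known to be chosen at random in each neuron through DNA methylation, CTCF and cohesin, whereas C-type genes are more uniformly expressed. In bulk tissue, a change in the number of cells that express a member and a change in RNA per cell cannot be told apart.

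The shared exons matter for every alpha and gamma value given here. In the GENCODE M21 gene models, the median alpha member had 53.4% of its exon bases in common with another member, the median gamma member 44.7% and the median beta member 0%. The deposited expected counts were fractional, a sign of reads divided between genes, in 97.4% of alpha values, 98.4% of gamma values and 25.3% of beta values. Single alpha and gamma members are therefore uncertain, and cluster sums less so. Exons of annotated genes outside the clusters lay over 68.5% of the exon bases of Pcdhga10, 63.5% of Pcdhb12, 45.2% of Pcdha11, 43.3% of Pcdha4, 42.2% of Pcdhga11 and 39.8% of Pcdhgc3. The strand of the overlapping genes was not looked at, and whether the counting used strand is not given in the sources used here. Members with such an overlap carry that doubt as well. No sequence is shown. Transcript sequences of the GENCODE M21 models were used here only for length and GC content.

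The libraries, numbered in column order, held 42035736 to 81961466 expected counts, except for E12.5 ff 1 (4919700) and E18.5 dcKO 1 (5980840). In E12.5 ff 1, 8 of 22 beta and 2 of 14 alpha members had under 10 counts. All 7 dcKO libraries were male by chromosome Y genes and Xist, against 2 of 3 ff at E12.5 and 2 of 4 ff at E18.5. Sbno1 was at 22.3 to 28.4 TPM (a share of all transcripts, corrected for gene length) in E12.5 ff and at 13.5 to 17.4 in E12.5 dcKO (log2 fold change -0.59, adjusted p = 0.051). At E18.5 it was at 14.7 to 18.4 TPM in ff and at 18.78 to 26.19 in dcKO (log2 fold change of counts -0.03, adjusted p = 0.68). Trp53 had log2 fold changes of -0.23 (adjusted p = 0.22) at E12.5 and -0.20 (adjusted p = 0.032) at E18.5. The E18.5 libraries are therefore called by their labels, and every direction drawn from them rests on those labels. Emx1 was lower in dcKO at both stages (39.5 to 42.5 TPM against 79.1 to 87.4 at E12.5, and 21.3 to 23.4 against 34.5 to 36.6 at E18.5). Sample descriptions named a library of another group than the title in 11 of 14 samples, and the column names of the tables were followed. E18.5 dcKO 3 had a summed level of 8 choroid plexus markers of 13.5 TPM, whereas the ff libraries of that stage ranged from 1459 to 2548.

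The gamma cluster held most of the clustered protocadherin RNA at both stages. In E12.5 ff the summed gamma level was 238, 265 and 203 TPM (libraries 1 to 3), the beta level 29.4, 30.0 and 24.2 TPM, and the alpha level 23.7, 25.6 and 19.4 TPM. At E18.5 the ff libraries had 424, 441, 419 and 425 TPM of gamma, 79.0, 84.1, 68.5 and 75.9 TPM of beta, and 119, 118, 101 and 107 TPM of alpha. Every E18.5 ff library was above every E12.5 ff library in all 3 clusters. The ratio of the stage means was 4.87 ± 0.775 (SD from 3 and 4 libraries) for alpha, 2.76 ± 0.394 for beta and 1.82 ± 0.246 for gamma. The alpha share of all members' TPM was thus 7.86% to 8.15% in E12.5 ff and 17.2% to 19.1% in E18.5 ff, and the gamma share 81.7% to 82.7% and then 68.2% to 71.2%.

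**Figure D1:**
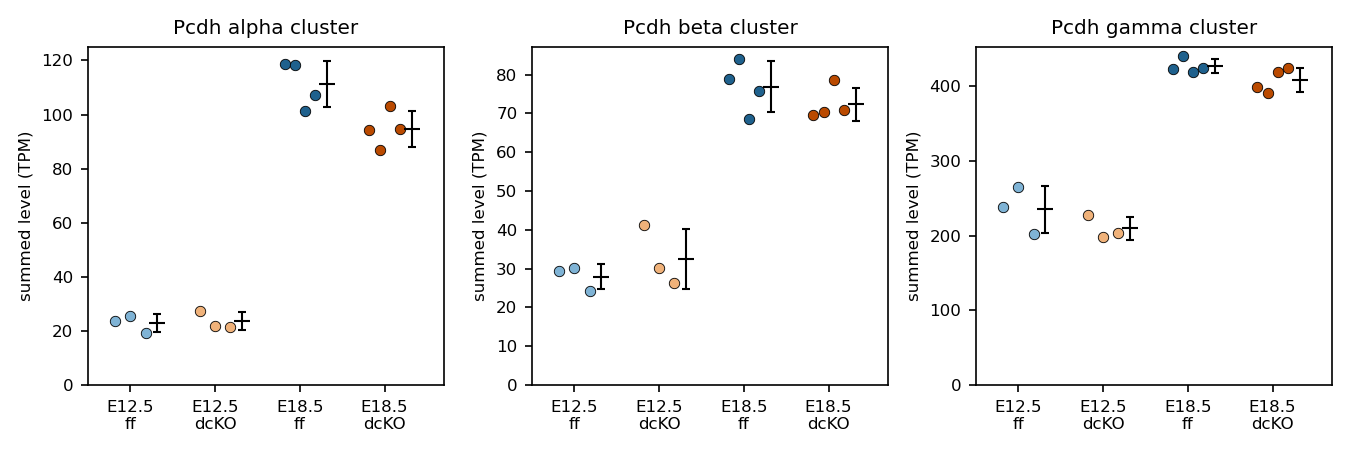
Summed level in TPM of the alpha, beta and gamma clusters, 1 point a library, by group, with the mean and SD at the right of each group. All 3 clusters were higher at E18.5 than at E12.5, and the E18.5 libraries labelled dcKO had 86.9 to 103 TPM of alpha against 101 to 119 in ff.

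Pcdhgc3, a C-type gene known to promote dendrite growth in the cortex, had the highest level of all members. It was at 79.3, 86.8 and 70.8 TPM in E12.5 ff and at 116, 123, 104 and 119 TPM in E18.5 ff. Pcdhgc4, which interneurons are known to need for survival, came next. Its levels were 30.7, 25.9 and 14.5 TPM in E12.5 ff and 68.3, 58.5, 102 and 75.8 TPM in E18.5 ff, so that its lowest and highest libraries lay far apart at each stage. Together these 2 genes made up 34.6% to 37.8% of all members' TPM in E12.5 ff and 28.3% to 35.0% in E18.5 ff. Of the other gamma members, Pcdhga11 (15.0 to 17.7 TPM in E12.5 ff, 32.9 to 39.5 in E18.5 ff) and Pcdhgb6 (17.4 to 18.3 and 19.8 to 29.7) were the highest and Pcdhgb8 (0.62 to 1.08 and 0.47 to 0.79) the lowest.

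The alpha and beta members were lower and closer to each other. Pcdhac2, a C-type gene known for the tiling of serotonergic axons, led the alpha cluster with 5.02, 5.84 and 4.94 TPM in E12.5 ff and 22.2, 20.5, 17.1 and 19.2 TPM in E18.5 ff. The A-type members next to it in mean level over all libraries were Pcdha9 and Pcdha12, and the lowest was Pcdha8 (0 to 0.17 TPM in E12.5 ff and 0.34 to 1.07 in E18.5 ff). Among beta members, Pcdhb7 (2.90 to 3.73 and 7.56 to 8.94 TPM) and Pcdhb17 (2.41 to 3.27 and 7.07 to 8.88) were highest. Pcdhb1 was at 0 to 0.1 TPM in all 14 libraries, with at most 7 counts, and was the 1 member that did not pass the filter on low counts. In E12.5 ff, 12 alpha, 11 beta and 21 gamma members had a mean of at least 1 TPM; in E18.5 ff these were 13, 21 and 21. The order of the 58 levels was much alike between genotypes (Spearman correlation across members 0.985 at E12.5 and 0.948 at E18.5, n = 58 members) and less so between stages (0.869 in ff, 0.913 in dcKO); members of a cluster share exons and all share libraries, so these are descriptions.

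**Figure D2:**
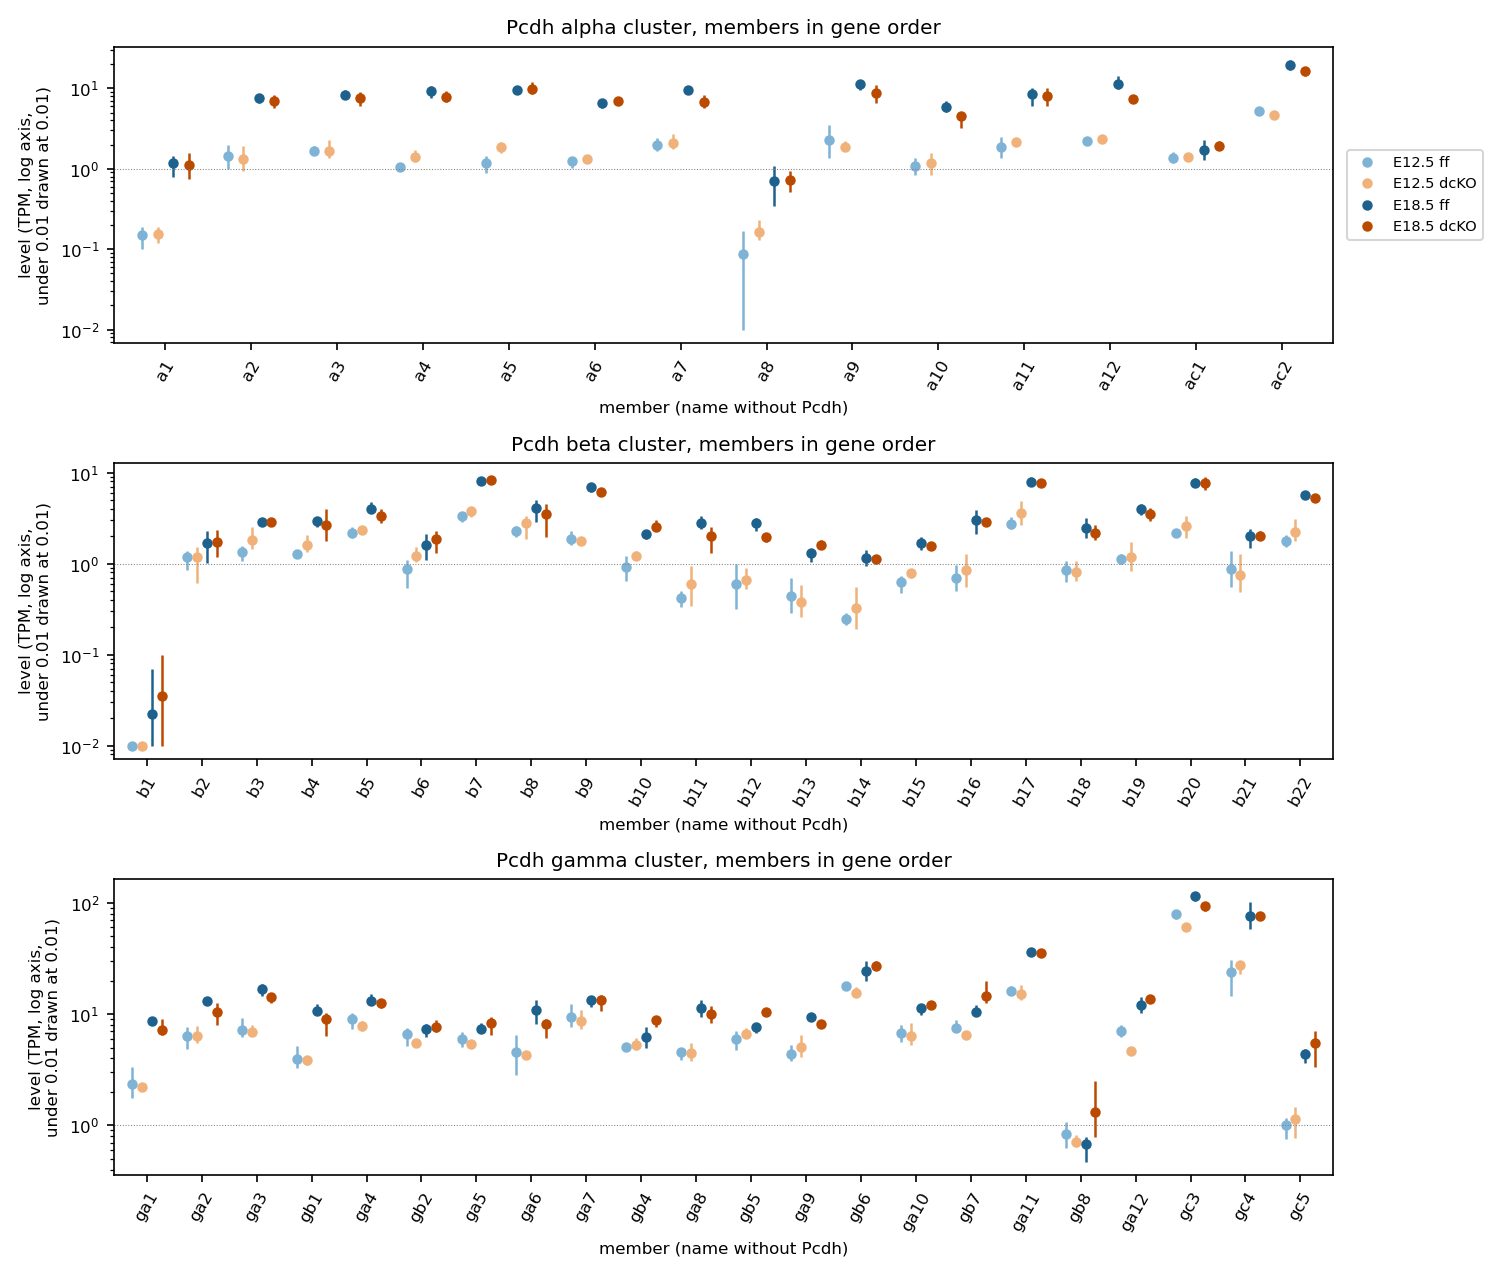
Level of each member in TPM (log axis, values under 0.01 drawn at 0.01) in gene order, with the group mean as a point and the range over libraries as a line, for the 4 groups. Pcdhgc3 and Pcdhgc4 stand above all others, and Pcdhb1 lies near 0 throughout.

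The stage comparison asked which members differed between E12.5 telencephalon and E18.5 cortex, in one fit of all 14 libraries (edgeR's quasi-likelihood test on expected counts, Benjamini-Hochberg adjustment over 19327 genes, called at an adjusted p under 0.05). In ff, 52 of the 57 members tested rose and 0 fell, where 61.4% of all genes were called, 31.5% higher and 29.9% lower. Alpha contributed 13 of 14, beta 21 of 21 and gamma 18 of 22. On TMM-scaled CPM, the groups did not overlap, with E18.5 higher, for 51 of 57 members and with E18.5 lower for 0. Of all genes, 31.7% and 27.9% did so. The median log2 fold change was 2.43 for alpha, 1.48 for beta and 0.76 for gamma, where that of all genes was 0.00. In the same fit 10 of 10 neuron markers rose, and their summed level went from 2876 to 3601 TPM in E12.5 ff to 6745 to 6986 in E18.5 ff; its part in the members' rise was not tested.

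All 12 A-type alpha genes rose, by 2.07 to 3.10 on the log2 scale. Pcdha4 was at 0.94, 1.12 and 1.07 TPM in E12.5 ff and at 9.15, 10.6, 9.28 and 7.56 TPM in E18.5 ff, a log2 fold change of 3.10 (SE 0.15, adjusted p = 4.4e-11). Pcdha5 rose by 3.08 (SE 0.16, adjusted p = 5.1e-11) and Pcdha6 by 2.47 (SE 0.12, adjusted p = 4.2e-11). The Spearman correlation of their fold change with their order in the cluster was -0.36 (n = 12, a description).

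The 2 alpha C-type genes differed from each other. Pcdhac2 rose by 1.87 (SE 0.10, adjusted p = 1.1e-10), with no overlap between stages. Pcdhac1 was at 1.17, 1.61 and 1.34 TPM in E12.5 ff and at 1.33, 2.27, 1.29 and 2.0 TPM in E18.5 ff; these overlap, and the log2 fold change was 0.27 (SE 0.19, adjusted p = 0.22). It was the only alpha member not called.

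All 21 beta members tested were called higher at E18.5 in ff, with log2 fold changes from 0.75 (Pcdhb8) to 2.59 (Pcdhb11). Pcdhb9 was at 1.60, 2.26 and 1.76 TPM in E12.5 ff and at 7.05, 7.27, 6.07 and 7.39 TPM in E18.5 ff, a log2 fold change of 1.82 (SE 0.12, adjusted p = 1.5e-09). Pcdhb7 rose by 1.29 (SE 0.11, adjusted p = 2.4e-08) and Pcdhb20 by 1.80 (SE 0.16, adjusted p = 4.5e-08). Members late in the cluster tended to have larger fold changes (Spearman correlation with order 0.56, n = 21, a description). Leaving out E12.5 ff 3 ended the call for Pcdhb6 (adjusted p = 0.051), and leaving out any of E12.5 ff 2, E12.5 ff 3 or E18.5 ff 2 ended that for Pcdhb2 (adjusted p up to 0.13), as did both TPM scales (adjusted p up to 0.28).

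Within the gamma cluster the A and B families are given apart. The 12 gamma A genes had a median log2 fold change of 1.05 in ff and 11 were called higher. The 7 gamma B genes had a median of 0.28 and 4 were called higher. The gamma B share of the summed gamma A and B level was 36.8%, 34.8% and 37.9% in E12.5 ff and 27.7%, 30.0%, 28.9% and 29.8% in E18.5 ff, with no overlap between stages. Pcdhga11 rose by 1.14 (SE 0.10, adjusted p = 2.5e-08) and Pcdhga1 by 1.85 (SE 0.18, adjusted p = 1.6e-07). The gamma C-type genes were all called: Pcdhgc5 rose by 1.94 (SE 0.18, adjusted p = 1.1e-07), Pcdhgc4 by 1.84 (SE 0.16, adjusted p = 2.0e-07) and Pcdhgc3 by 0.50 (SE 0.08, adjusted p = 2.7e-05). The 4 gamma members not called were Pcdhgb2 (0.19), Pcdhga5 (0.27), Pcdhgb4 (0.28) and Pcdhgb8 (-0.26). The calls of Pcdhga7 (0.50) and Pcdhgb5 (0.28) were lost when any of E12.5 ff 1, E12.5 ff 3 or E18.5 ff 2 was left out, and that of Pcdhgb5 also without E18.5 ff 1 (adjusted p up to 0.14 and 0.092). With no filter both were lost, and Pcdhgb5 was also lost with length and GC correction and without both shallow libraries.

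In dcKO, 49 of 57 members rose with stage and 0 fell, where 62.2% of all genes were called, 30.9% higher and 31.3% lower. These were 13 of 14 alpha, 16 of 21 beta and 20 of 22 gamma members, and 47 of the 49 were also called in ff. On TMM-scaled CPM, the E18.5 dcKO libraries were all above the E12.5 ones for 47 of 57 members and below them for 0. Of all genes, 30.9% and 33.0% did so. The median log2 fold changes were 1.93 for alpha, 1.15 for beta and 0.65 for gamma. Pcdhac1 again had a small value (0.25, SE 0.18, adjusted p = 0.24), Pcdhac2 rose by 1.61 (SE 0.10), Pcdhgc3 by 0.43 (SE 0.08), Pcdhgc4 by 1.47 (SE 0.15) and Pcdhgc5 by 2.21 (SE 0.18). The 5 beta members called in ff and not in dcKO were Pcdhb2, Pcdhb4, Pcdhb5, Pcdhb6 and Pcdhb8, at log2 fold changes of 0.29 to 0.47; none of them was called in the test of the difference itself, the interaction of genotype and stage. Leaving out 1 of several dcKO libraries ended the calls of Pcdhb3, Pcdhga2 and Pcdhga7 (adjusted p up to 0.20, 0.068 and 0.15; without E12.5 dcKO 2 or E12.5 dcKO 3 for all 3 genes, without E18.5 dcKO 2 or E18.5 dcKO 4 for Pcdhb3 and Pcdhga7, and without E18.5 dcKO 3 for Pcdhga7).

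**Figure D3:**
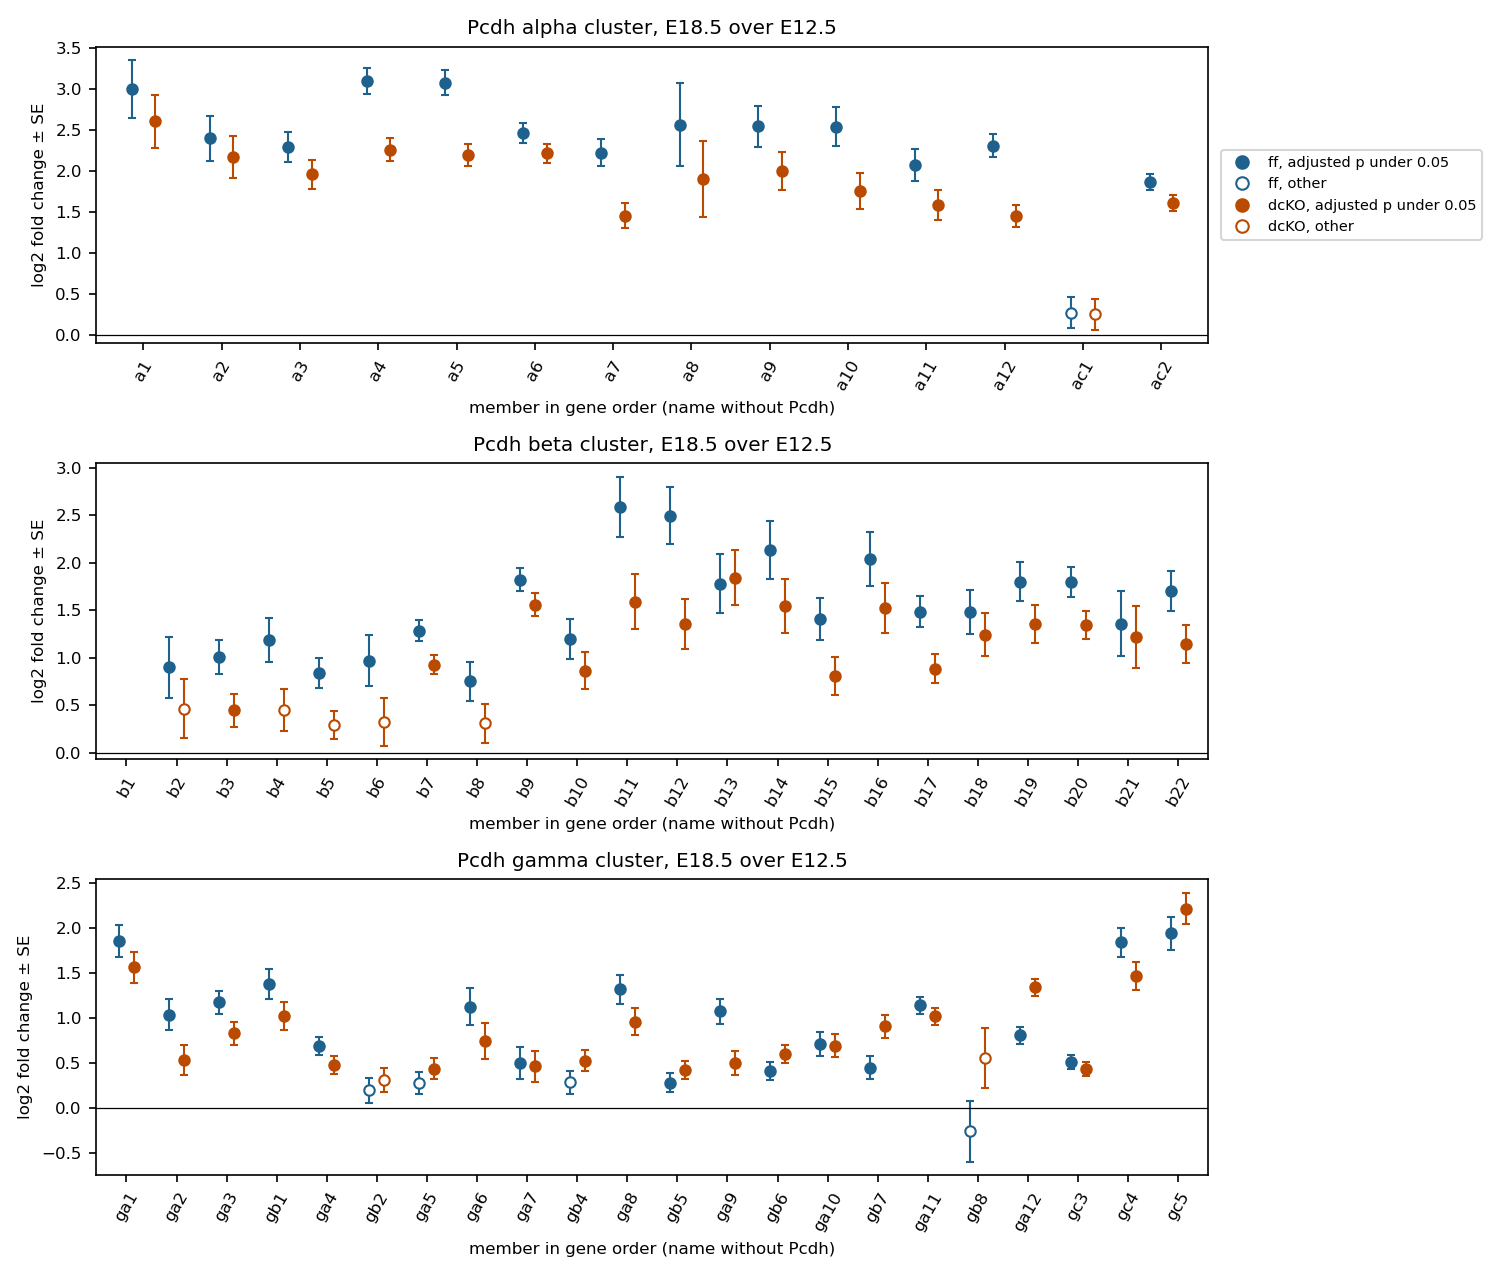
Log2 fold change of E18.5 over E12.5 with its SE for each tested member in gene order, in ff and in dcKO. Filled points have an adjusted p under 0.05. Alpha A-type members lie between 1.45 and 3.10, and Pcdhac1 lies at 0.27 and 0.25.

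At E12.5 the comparison of dcKO with ff in the 6 libraries of that stage called 0 of 57 members by edgeR's quasi-likelihood test, where 0.190% of all 17853 genes were called. Of the members, 4 had an unadjusted p under 0.05, beside 3433 of the 17853 genes. DESeq2's Wald test called 2 lower, Pcdhga12 and Pcdhgc3, and the authors' deposited table also had 2 of 33 members with an adjusted p as lower, Pcdhga12 at -0.46 and Pcdhgc3 at -0.34. Over all genes, the Wald test called 333 higher and 904 lower of 28458. The authors' table had 325 higher and 922 lower of 12200 genes with an adjusted p. The median log2 fold change was 0.12 for alpha, 0.28 for beta and -0.09 for gamma, beside 0.01 for all genes. Fold changes fell with transcript length across all genes of this comparison (Spearman correlation -0.41). After a length and GC correction 0 members were called, beside 149 of 17448 genes. The main fit also called 0, so this count cannot show what length did to the members.

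Pcdhgc3 and Pcdhga12 had the smallest p-values among the members. Pcdhgc3 was at 79.3, 86.8 and 70.8 TPM in ff and at 64.8, 56.4 and 59.9 TPM in dcKO, so that the groups did not overlap. The log2 fold change was -0.38 (SE 0.08, adjusted p = 0.076). Pcdhga12, the last gamma A gene, was at 7.90, 6.81 and 6.26 TPM in ff and at 4.94, 4.67 and 4.27 TPM in dcKO, again without overlap, with a log2 fold change of -0.55 (SE 0.11, adjusted p = 0.073). In 1 fit of all 14 libraries both passed (adjusted p = 0.019 for Pcdhgc3 and 0.0097 for Pcdhga12), as did Pcdhgc3 without E12.5 dcKO 1 (adjusted p = 0.044). Pcdha5 had the largest difference among alpha members at 0.70 (SE 0.22, adjusted p = 0.14), with 1.44, 1.23 and 0.89 TPM in ff and 2.15, 1.56 and 1.81 TPM in dcKO; it too passed in the fit of all 14 libraries (adjusted p = 0.015). On TMM-scaled CPM, members whose groups did not overlap were 3 with dcKO higher (Pcdha4, Pcdha5 and Pcdhb4) and 4 with dcKO lower (Pcdhac2, Pcdhgb6, Pcdhga12 and Pcdhgc3). Of all genes, 13.5% and 13.2% did so. In TPM, Pcdhac2 (4.95 in dcKO 1 against 4.94 in ff 3) and Pcdhgb6 (17.47 against 17.37 in the same libraries) overlapped.

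The summed beta level at E12.5 rested on 1 library. It was 41.1 TPM in dcKO 1, 30.2 in dcKO 2 and 26.3 in dcKO 3, against 24.2 to 30.0 in ff. For 15 of 22 beta members dcKO 1 was the highest of the 6 libraries. The ratio of dcKO to ff was 1.17 ± 0.307 with all libraries and 1.0127 without dcKO 1.

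At E18.5 the same comparison called 19 of 57 members in the libraries labelled dcKO, 2 higher and 17 lower. Over all 17974 genes, 32.2% were called, 15.6% higher and 16.6% lower, so that the share of members called (33.3%) lay near the background while 29.8% of members were lower and 3.51% higher. On TMM-scaled CPM, the groups did not overlap, with dcKO lower, for 16 members and, with dcKO higher, for Pcdhgb5 alone. Of all genes, 17.2% and 16.1% did so. In TPM, only Pcdha7, Pcdha12, Pcdhac2, Pcdhb12, Pcdhga9 and Pcdhgc3 of the 16 stayed apart. With dcKO higher, Pcdhgb4, Pcdhgb7 and Pcdhb13 were apart in TPM beside Pcdhgb5. Their lowest dcKO values were 7.69, 12.48 and 1.48 TPM, against highest ff values of 7.66, 12.12 and 1.45. The median log2 fold change was -0.28 for alpha (6 of 14 lower), -0.18 for beta (4 of 21 lower) and -0.08 for gamma (7 of 22 lower and 2 higher), beside 0.03 for all genes. The authors' deposited table for this stage listed 22 of 57 members with an adjusted p under 0.05, 2 higher and 20 lower. Over all genes it listed 6315 of 19758, 2842 higher and 3473 lower.

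In the alpha cluster, 5 A-type genes and Pcdhac2 were called lower. Pcdha12 was at 14.3, 10.4, 11.2 and 9.82 TPM in ff and at 6.83, 6.49, 7.92 and 8.35 TPM in dcKO. All 4 dcKO libraries lay below all 4 ff libraries, and the log2 fold change was -0.74 (SE 0.12, adjusted p = 0.0010). Pcdha7, at 8.81 to 10.3 TPM in ff and 5.64 to 8.32 in dcKO, fell by 0.63 on the log2 scale (SE 0.10, adjusted p = 0.00078). Pcdhac2 was at 22.2, 20.5, 17.1 and 19.2 TPM in ff and at 14.2, 16.9, 16.9 and 16.8 TPM in dcKO, a log2 fold change of -0.39 (SE 0.08, adjusted p = 0.0021). Pcdha9 (-0.50), Pcdha10 (-0.47) and Pcdha4 (-0.31) were also called; Pcdha4 was not called without ff 2, ff 3, dcKO 1, dcKO 2 or dcKO 4 (adjusted p up to 0.082) and Pcdha10 not without ff 2, ff 3 or dcKO 4 (adjusted p up to 0.057). Sex as a covariate also ended the calls of Pcdha4 and Pcdha9, 1 fit of all 14 libraries those of Pcdha9 and Pcdha10, and median-scaled TPM those of Pcdha4 and Pcdha10. In limma on log2(TPM + 1) none of these 3 genes or Pcdhac2 was called. Over these settings and the fit without dcKO 1 and dcKO 3, which Pcdha10 missed too, the adjusted p was up to 0.25 for Pcdha4, 0.067 for Pcdha9, 0.11 for Pcdha10 and 0.057 for Pcdhac2. Pcdhac1 had a log2 fold change of 0.04 (SE 0.17, adjusted p = 0.90).

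The beta members called were Pcdhb12, Pcdhb11, Pcdhb22 and Pcdhb9, all lower. Pcdhb12 was at 3.17, 2.73, 2.28 and 3.06 TPM in ff and at 2.16, 1.82, 2.15 and 1.73 TPM in dcKO, so that no dcKO library reached the lowest ff library. The log2 fold change was -0.64 (SE 0.15, adjusted p = 0.0051). Pcdhb22 fell by 0.38 (SE 0.09, adjusted p = 0.0052) and Pcdhb9 by 0.31 (SE 0.08, adjusted p = 0.016). Pcdhb22 was not called in either TPM scale or in 1 fit of all 14 libraries (adjusted p up to 0.34), and Pcdhb9 not in limma on log2(TPM + 1) or with sex as a covariate (adjusted p up to 0.18). Pcdhb12 was not called in limma on log2(TPM + 1) (adjusted p = 0.064). The other 17 tested beta members had log2 fold changes of -0.36 to 0.17, with 3 of them above 0. Pcdhb11 (-0.51) was not called without ff 1, ff 2 or dcKO 3 (adjusted p up to 0.095), nor in either TPM scale, in 1 fit of all 14 libraries or without both dcKO 1 and dcKO 3 (adjusted p up to 0.16).

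In the gamma cluster the A and B families had medians of opposite sign. Of the 12 gamma A genes, 5 fell (Pcdhga1, Pcdhga2, Pcdhga3, Pcdhga6 and Pcdhga9), 0 rose and the median was -0.24. Of the 7 gamma B genes, Pcdhgb4 and Pcdhgb5 rose, Pcdhgb1 fell and the median was 0.30. The gamma B median was 0.15 without the shallow library dcKO 1, and in limma on log2(TPM + 1) the gamma A median was -0.11 with 0 genes called; both medians kept their sign in every alternative run. Pcdhga9 was at 9.02, 10.3, 8.73 and 9.67 TPM in ff and at 8.01, 7.75, 8.60 and 8.36 TPM in dcKO, a log2 fold change of -0.32 (SE 0.06, adjusted p = 0.0024). Pcdhgb5, its neighbour in the row, was at 7.81, 8.02, 6.72 and 7.78 TPM in ff and at 11.4, 9.51, 10.5 and 10.3 TPM in dcKO, a log2 fold change of 0.33 (SE 0.07, adjusted p = 0.0036). The groups of each gene did not overlap. Pcdhga3 fell by 0.35 (SE 0.08, adjusted p = 0.0051), and Pcdhgb4 rose by 0.36 (SE 0.11, adjusted p = 0.024). Pcdhgb4 was the less stable of the rises: it was not called without ff 3, ff 4, dcKO 3 or dcKO 4 (adjusted p up to 0.086), nor without both dcKO 1 and dcKO 3 (adjusted p = 0.12). Among the falls, Pcdhgb1 was not called without ff 2, ff 3, ff 4, dcKO 2 or dcKO 4, and Pcdhga1 and Pcdhga6 not without dcKO 4 (adjusted p up to 0.075, 0.052 and 0.062). Sex as a covariate ended all 3 of these calls, no filter those of Pcdhgb1 and Pcdhga6, 1 fit of all 14 libraries those of Pcdhgb1 and Pcdhga1, median-scaled TPM that of Pcdhgb1, and leaving out both dcKO 1 and dcKO 3 that of Pcdhga6.

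The balance of gamma B to gamma A does not depend on how libraries are scaled. The gamma B share of the 19 gamma A and B genes was 27.7%, 30.0%, 28.9% and 29.8% in E18.5 ff and 36.3%, 33.4%, 32.2% and 33.9% in E18.5 dcKO, a mean of 29.1% ± 1.06 against 34.0% ± 1.70 (SD, n = 4). The groups did not overlap. The highest share belonged to dcKO 1, the shallow library, and the other 3 dcKO libraries were also above all ff libraries. At E12.5 the share was 36.5% ± 1.56 in ff and 36.5% ± 1.45 in dcKO (SD, n = 3). Along the gamma row the fold change at E18.5 was higher towards the 3′ end (Spearman correlation with order 0.63 over the 19 genes without C-type, a description), and most of the gamma B genes lie in the later part of it.

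Among the gamma C-type genes only Pcdhgc3 was called. It was at 116, 123, 104 and 119 TPM in ff and at 85.0, 89.6, 101 and 101 TPM in dcKO, with no overlap, and a log2 fold change of -0.40 (SE 0.06, adjusted p = 0.00035). Pcdhgc4 was at 82.1, 74.5, 72.6 and 76.7 TPM in dcKO, within the ff range, with a log2 fold change of -0.06 (SE 0.10, adjusted p = 0.67). Pcdhgc5 was at 3.64 to 4.86 TPM in ff and 3.34 to 7.04 in dcKO, with a log2 fold change of 0.22 (SE 0.12, adjusted p = 0.18). The ratio of Pcdhgc4 to Pcdhgc3 was 0.59, 0.47, 0.97 and 0.64 in ff and 0.97, 0.83, 0.72 and 0.76 in dcKO, so that 1 ff library (ff 3) lay above all dcKO libraries.

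**Figure D4:**
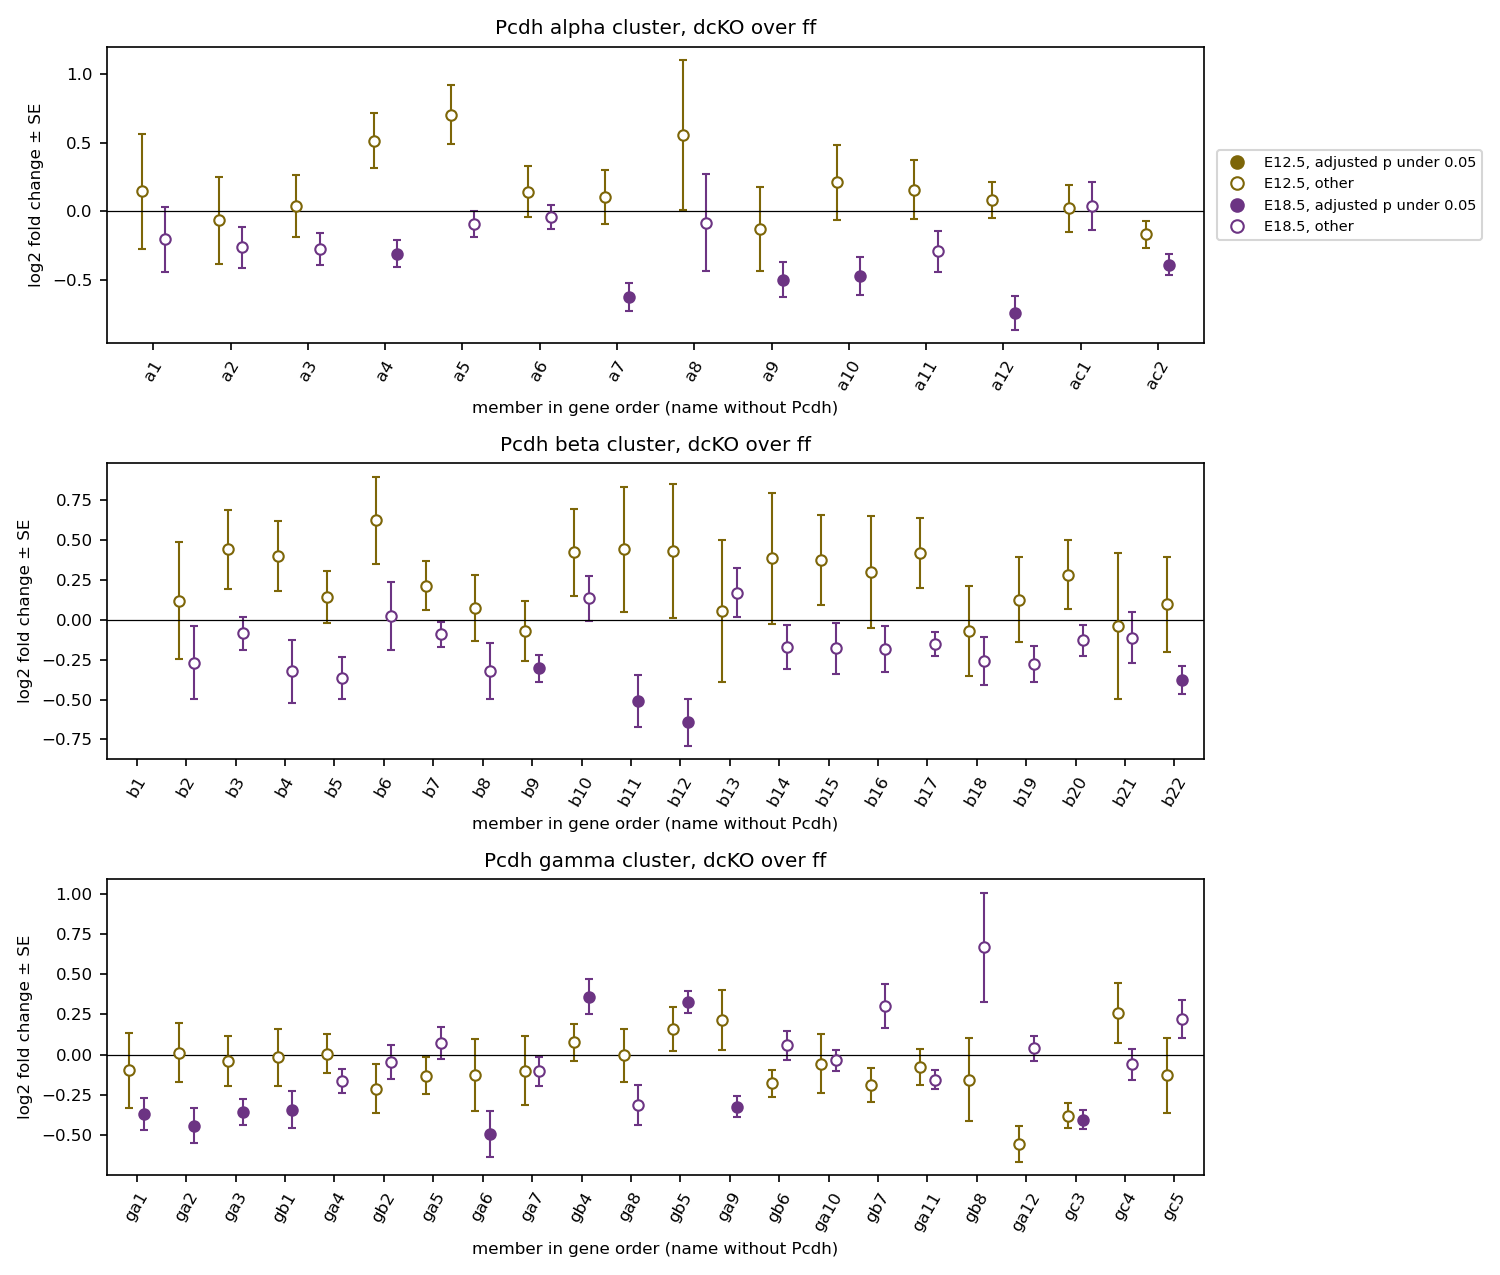
Log2 fold change of dcKO over ff with its SE for each tested member in gene order, at E12.5 and at E18.5. Filled points have an adjusted p under 0.05: 0 members at E12.5 and 19 at E18.5, of which only Pcdhgb4 and Pcdhgb5 lie above 0.

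The scale matters at E18.5. In a limma test of log2(TPM + 1) the median of all genes was 0.13, the split of all calls was 3329 higher to 1091 lower in place of 2801 to 2978, and the members called were 2 higher and 3 lower. With TPM divided by each library's median ratio, an alternative chosen after seeing the data, the split was 2057 to 2236 and 2 members were higher and 12 lower. The summed levels moved likewise: the ratio of dcKO to ff was 0.850 ± 0.0878 for alpha, 0.942 ± 0.0974 for beta and 0.956 ± 0.0427 for gamma in deposited TPM (SD from 4 and 4 libraries), and 0.788, 0.873 and 0.886 in median-scaled TPM. Pcdha7, Pcdha12, Pcdhgc3 and Pcdhgb5 were called under all 18 alternatives run at this stage.

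Markers of several cell types differed between the E18.5 groups along with the members, and their part in the members' differences was not tested. Of all genes at this stage, 15.6% were called higher and 16.6% lower. Of 10 neuron markers, 9 were lower in dcKO and 0 higher, and their summed level was 6745 to 6986 TPM in ff and 4738 to 5297 in dcKO. Of 10 radial glia markers, 8 were higher and 0 lower (2185 to 2299 against 2378 to 2647 TPM). Of 10 GABAergic neuron markers, 9 were higher and 1 lower (963 to 1047 against 1387 to 1513 TPM), and no marker of these lists was at 0 in a whole group. Of 8 telencephalon and cortex markers, 1 was higher and 5 were lower (1197 to 1361 TPM in ff against 865 to 981 in dcKO). Of 6 erythroid markers tested, 0 were called, with a median log2 fold change of -1.44 (3648 to 6194 against 594 to 2759 TPM); Hba-a1 was at 134 TPM in dcKO 1 and 126 in dcKO 3, against 590 and 630 in the other dcKO libraries. Leaving out the libraries dcKO 1 and dcKO 3 together gave 1 member higher and 20 lower, beside 2289 and 2575 of 18691 genes. Sex as a covariate gave 2 members higher and 14 lower, beside 2317 and 2462 of 17974 genes.

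The test of the difference between the genotype effects at the 2 stages called 6 of 57 members, 1 higher and 5 lower, beside 16.5% of all 19327 genes, 7.12% higher and 9.41% lower. The effect at E18.5 was lower than at E12.5 for Pcdha5 (-0.88, SE 0.20, adjusted p = 0.0074), Pcdha12 (-0.86, SE 0.18, adjusted p = 0.0060), Pcdha4 (-0.84, SE 0.20, adjusted p = 0.0099), Pcdha7 (-0.77, SE 0.22, adjusted p = 0.026) and Pcdhga9 (-0.57, SE 0.18, adjusted p = 0.044). Pcdhga12 went the other way (0.54, SE 0.13, adjusted p = 0.013), with -0.55 at E12.5 and 0.04 at E18.5. The medians were -0.51 for alpha, -0.52 for beta with 0 of 21 called, and -0.05 for gamma, beside -0.03 for all genes. Pcdha5 and Pcdha4 were above 0 at E12.5 (0.70 and 0.52, neither called) and at -0.09 and -0.31 at E18.5, whereas Pcdha12 was at 0.08 and then -0.74. Pcdha5 and Pcdha4 were not called in either TPM scale (adjusted p up to 0.23 and 0.14). Pcdhga9 was not called in 19 of 24 alternatives and Pcdha7 not in 5, which include leaving out E12.5 ff 3, E12.5 dcKO 1 or E18.5 ff 1; Pcdhga12 was not called without E12.5 dcKO 3 (adjusted p = 0.051).

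**Figure D5:**
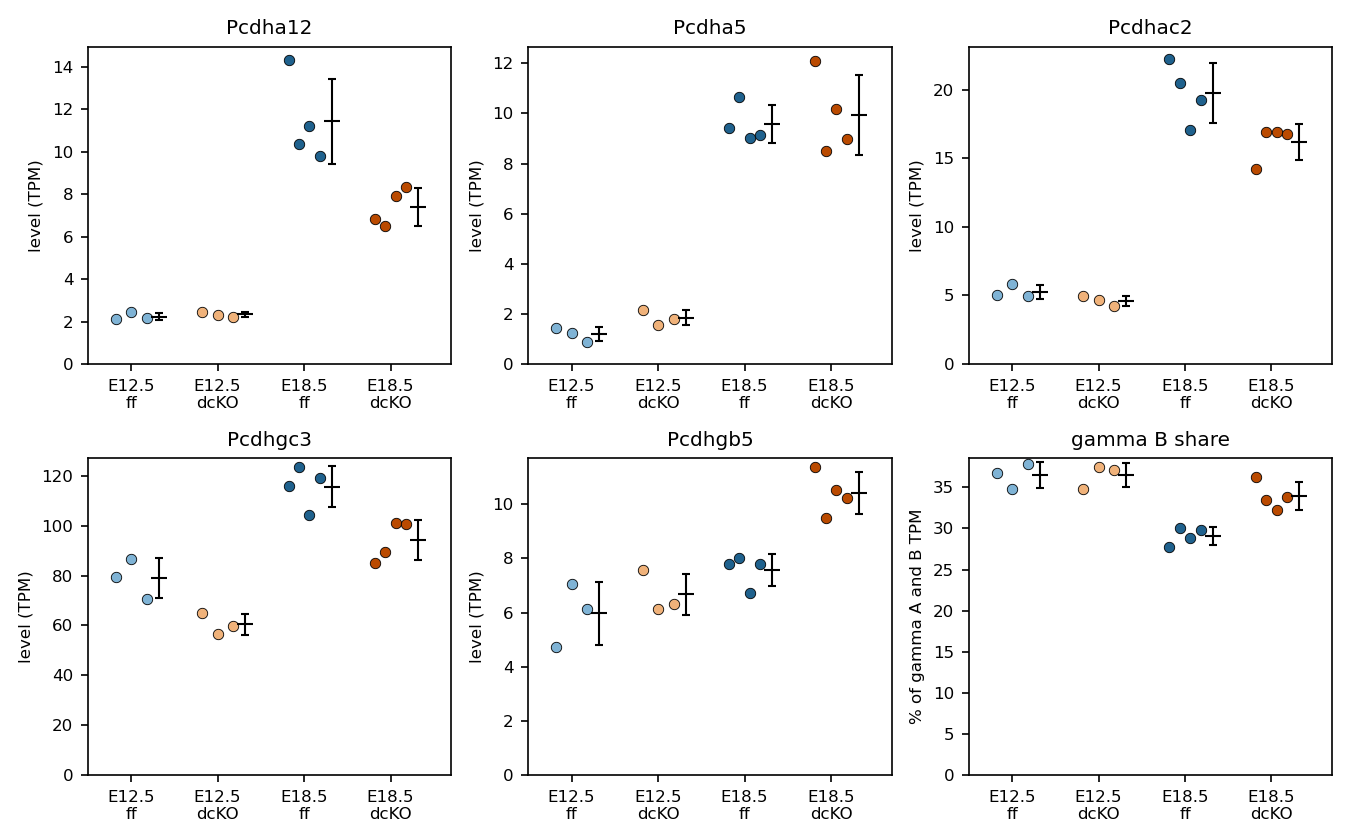
Level in TPM of 5 members, and the gamma B share of the summed gamma A and B level in percent, 1 point a library, with the mean and SD at the right of each group. Pcdha12, Pcdhac2 and Pcdhgc3 are lower and Pcdhgb5 is higher in all E18.5 dcKO libraries than in all E18.5 ff libraries, and the gamma B share is 32.2% to 36.3% against 27.7% to 30.0%.

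Genes known to act with the clustered protocadherins were read from lists. Of 18 partners and downstream genes, 0 were higher and 11 lower in E18.5 dcKO, with a median log2 fold change of -0.19. Over all genes, 15.6% were higher and 16.6% lower, with a median of 0.03. Among the partners are the WAVE complex subunits that bind the protocadherins' cytoplasmic tail. Others are kinases that the protocadherins' constant domain is known to hold in check. Ptk2b, a focal adhesion kinase family member, fell by 1.04 (SE 0.14, adjusted p = 0.00032), the adhesion protein gene Nlgn1 by 0.72 (SE 0.08, adjusted p = 4.5e-05) and the WAVE complex gene Nckap1 by 0.31 (SE 0.06, adjusted p = 0.0014). In TPM, 1 partner was higher and 2 were lower, beside 3329 higher and 1091 lower of all 16018 genes tested. At E12.5, edgeR's test called 0 of these 18 genes, 0 of 15 CTCF and cohesin genes and 0 of 16 DNA methylation and silencing genes (3, 10 and 9 at an unadjusted p under 0.05). Of all 17853 genes in that test, 0.190% were called and 3433 had an unadjusted p under 0.05. DESeq2's Wald test called 1 of the 18 higher, 5 of the 15 lower and 3 of the 16 lower. Over all 28458 genes it called 333 higher and 904 lower.

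Factors known to act in promoter choice were also read at E18.5. Of 15 CTCF, cohesin and loop genes, Cdca5 (0.42, SE 0.13, adjusted p = 0.028) and Wapl (0.18, SE 0.07, adjusted p = 0.049) were higher and 0 lower, a share near the 15.6% of all genes called higher. The count of higher genes was 6 in limma on log2(TPM + 1), 5 with sex as a covariate and 1 with DESeq2 size factors. Over all genes, these settings had 3329 of 16018, 2317 of 17974 and 2672 of 17974 higher. Ctcf itself was at -0.05 (SE 0.06, adjusted p = 0.57). Of 16 DNA methylation and silencing genes, 4 were higher and 0 lower, beside 15.6% and 16.6% of all genes. Among the 4 was Dnmt3b, the methyltransferase known to mark protocadherin promoters (0.67, SE 0.145, adjusted p = 0.0040). Dnmt3a (0.31, SE 0.05, adjusted p = 0.00065) and Uhrf1 (0.48, SE 0.10, adjusted p = 0.0031) were also higher. Smchd1, a known silencer of the clusters, had 0.17 (SE 0.06, adjusted p = 0.053).

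Genes around the clusters and protocadherins elsewhere in the genome were also read. Of 12 tested genes flanking the clusters, Zmat2 fell by 0.42 (SE 0.05, adjusted p = 0.00014) and Wdr55 by 0.22 (SE 0.07, adjusted p = 0.039) at E18.5, and 0 rose, a share near the 16.6% of all genes that fell. Of 12 protocadherins outside the clusters, 5 were higher and 2 lower, beside 15.6% and 16.6% of all genes. Pcdh20 fell by 0.63 (SE 0.07, adjusted p = 6.0e-05), while Pcdh17 rose by 0.29 (SE 0.06, adjusted p = 0.0019) and Pcdh10 by 0.40 (SE 0.08, adjusted p = 0.0019). With stage in ff, Pcdh20 rose by 2.44 (SE 0.15), and of the 12 genes 9 rose and 1 fell, beside 31.5% and 29.9% of all genes.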

How the data were processed

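Libraries were made from poly(A) RNA with a stranded kit, per the labels' protocols. Per the submitters' processing notes, the authors used Trim Galore, STAR, RSEM and DESeq2; versions, genome build, annotation and counting strand are not given in the sources used here. The authors deposited RSEM expected counts and TPM per gene and library, and per the file headers DESeq2 tables with a mean normalized count signal, a log2 fold change, the standard error as a score and p-values with adjusted p. The authors' log2 fold changes followed dcKO over ff across genes (Spearman correlation 0.844 over 17529 genes at E12.5 and 0.945 over 18019 at E18.5).

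Here expected counts were rounded and tested with edgeR 4.0.16 (R 4.3.3): filterByExpr, TMM, robust quasi-likelihood fit, two-sided test, Benjamini-Hochberg adjustment over all genes, threshold 0.05. Genotype was fitted within a stage, and stage and interaction in 1 fit of 4 groups. Groups came from titles and column names, with dfl read as ff, and replicate numbers are only column order. P-values set a difference between groups against the spread between these samples. Levels are deposited TPM. Non-overlap was read from TMM-scaled CPM. Alternatives used DESeq2 1.42.0, limma 3.58.1 on log2(TPM + 1) for genes of mean TPM of at least 1, other filters and scalings, sex, length and GC (GENCODE M21 models), and each library left out. Gene order came from RefSeq annotation of GRCm38.p6, of which 58 members were matched, and GENCODE held models for 58.

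Members and lists were chosen with earlier results of these data known. The named genes were the 5 C-type members; in each cluster the 2 other members of highest and the 1 of lowest mean TPM; in each cluster and comparison up to 3 called members a direction of lowest p; and from each other list up to 3 genes of lowest p a genotype comparison. Further names were added after their values were seen. The fits were run on simulated counts in which a small set of genes was changed, as many up as down. That run cannot speak to data where many genes differ, or to the choice of scale. The counts given beside single values bear on counting error only.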

Additional observations from a re-analysis of the deposited data

Results flagged for a closer look

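Among 62 groups of 4 libraries tested (named members and cluster sums), 5 had 1 library far from the other 3, and chance gives about 5% of groups. Pcdhac2 was at 14.19 TPM in E18.5 dcKO 1, while the other dcKO libraries were at 16.77 to 16.92. Pcdhgb8 was at 2.52 TPM in the same library, against 0.78 to 1.02 in the others. In E18.5 dcKO 3, the library with few choroid plexus marker transcripts, Pcdhga1 was at 8.93 TPM against 6.47 to 6.88, and the summed beta level was 78.67 TPM against 69.72 to 70.83. Pcdhb1 was at 0.07 TPM in E18.5 ff 3, against 0 to 0.01 in the others, where 5 counts stand behind the value.

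The genotype effect differed between the stages by the interaction term of edgeR's quasi-likelihood test for 6 of 57 members. Of all 19327 genes, 16.5% were called. On the log2 scale, E18.5 minus E12.5, the difference was -0.88 for Pcdha5, -0.86 for Pcdha12, -0.84 for Pcdha4, -0.77 for Pcdha7, -0.57 for Pcdhga9 and 0.54 for Pcdhga12. Pcdhga9 was not called in 19 of 24 alternatives.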

How the results depend on the processing

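Members called at E12.5 were 1 higher and 2 lower in 1 fit of all 14 libraries, 2 lower by DESeq2's Wald test and 1 lower with no filter, and 0 to 1 lower when 1 library was left out. Over all genes, the fit of 14 libraries called 345 higher and 734 lower of 19327. The Wald test called 333 and 904 of 28458, and the fit with no filter 43 and 201 of 28458. With 1 library left out, 0 to 495 of all genes were lower. At E18.5, 3 members were called lower in limma on log2(TPM + 1), beside 1091 of 16018 genes. Leaving out 1 library gave 1 to 3 higher and 12 to 20 lower, beside 1910 to 2817 and 2358 to 3153 of all genes. Leaving out both dcKO libraries in doubt gave 1 higher, beside 2289 of 18691 genes. For the difference between the stages, 1 was called lower in limma on log2(TPM + 1) and 2 in median-scaled TPM, beside 469 and 1265 of 16023 genes. Leaving out 1 library gave 0 to 1 higher and 3 to 8 lower, beside 674 to 1402 and 1016 to 1957 of all genes. Stage counts stayed at 48 to 53 in ff and 46 to 51 in dcKO with 1 library left out. Beside them, 5553 to 6250 and 5203 to 6249 of all genes were higher. The E18.5 ratio of dcKO to ff in CPM was 0.7518 for alpha, 0.8309 for beta and 0.8579 for gamma, and 0.8855 for gamma in median-scaled TPM. Other scalings moved the split of all genes' calls for the difference between the stages (1376 higher to 1819 lower) to 2090 to 469 in TPM and 1575 to 1541 with DESeq2 size factors, that for stage in dcKO (5965 to 6053) to 6391 to 3512 in TPM and 5123 to 7117 with length and GC correction, and that for genotype at E18.5 (2801 to 2978) to 2296 to 4520 with length and GC correction, where 2 members were higher and 24 lower. In TPM the median log2 fold change of all genes was 0.14 for the difference between the stages and 0.18 for stage in dcKO, where the counts gave -0.03 and 0.01.

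Of 58 fold changes of named members, 50 kept their direction in all alternatives run. The others were close to 0. Pcdhac1 was -0.0018 at E12.5 by DESeq2's Wald test (-0.0582 to 0.1302 with 1 library left out). At E18.5 it was -0.0265 with length and GC correction and -0.0024 in 1 fit of all 14 libraries (-0.0866 to 0.1694 with 1 library left out), and its stage change in dcKO was -0.0043 with length and GC correction. In limma on log2(TPM + 1), Pcdhgc4 at E18.5 was 0.0356 (-0.1541 to 0.0385 with 1 library left out), Pcdha5 at E18.5 0.0418 and Pcdhgc5 at E12.5 0.0921 (0.113 in median-scaled TPM). Pcdhga12 at E18.5 was -0.0189 with length and GC correction and -0.0021 in 1 fit of all 14 libraries (-0.0392 to 0.0954 with 1 library left out). Pcdha7 at E12.5 was -0.0083 with sex as a covariate (-0.0817 to 0.2508 with 1 library left out). The cause of these changes was not tested. Median-scaled TPM was chosen after seeing the data. No paired analysis was possible because the numbers in the column names tie no ff library to a dcKO library in the labels, and the replicate numbers used here only follow the column order. Depth limits the beta members of E12.5 ff 1 most, with a median of 11.5 counts a member.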
